A study of Mus musculus with 16 samples.

Results

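The genes described here are the serpins, the tissue kallikreins and the Kazal-type Spink inhibitors of the mouse, taken by gene symbol from a count table of medullary thymic epithelial cells (mTEC). A symbol had to begin with Serpin, a clade letter from a to i and a number, or with Klk or Spink and a number, and symbols marked as pseudogenes were left out. This gave 101 members among 53464 Ensembl gene rows, namely 63 serpins, 26 kallikreins and 12 Spink genes. The rule used names alone and no measured value. By annotated biotype Serpina3h is a transcribed pseudogene and Serpinb10 a polymorphic pseudogene, and both were kept.

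The 16 RNA-seq libraries came from 8 mice, each of which gave a mature mTEC library and an immature one. The mice belonged to 2 lines. In the Rbfox1 line all mice carried Rbfox1 lox/lox, and in the Rbfox2 line all carried Rbfox2 lox/lox, so the controls held the same floxed alleles as the knockouts. Controls were Foxn1 wildtype/wildtype and thymus knockouts (tKO) were Foxn1 wildtype/cre. Cre is thereby expressed from the Foxn1 locus, which is active in thymic epithelium, and the deletion is not limited to mTEC. Each line had 2 control and 2 tKO mice, a female and a male of each genotype, of 4 to 6 weeks by the labels. The labels give the strain as C57BL/6, while the methods describe a mixed background. Cells were sorted as CD45- EpCAM+ Ly51- UEA+, with high MHCII for mature and low MHCII for immature mTEC, and 10000 cells went into each library.

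Serpins are mostly suicide inhibitors: a protease cleaves an exposed loop of the serpin, and the complex is then trapped. Tissue kallikreins are secreted trypsin- or chymotrypsin-like serine proteases, of which several shed cells from the skin surface. Spink proteins block serine proteases with Kazal domains, as Spink1 does with trypsin in the pancreas and Spink5 with kallikreins in the epidermis. In the thymus, mature mTEC transcribe many genes of peripheral tissues, so that developing T cells meet those self-proteins, and the transcriptional regulator Aire is needed for a large part of this.

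The promoters of the Klk1b genes, the rodent-specific relatives of tissue kallikrein Klk1, shared letters that the other kallikrein promoters lacked. Windows of 44 bases are shown because these genes gave the most uniform result in the comparison of mature with immature mTEC. They were taken on the plus strand from RefSeq promoters of the build GRCm38.p6, and each Klk1b window begins 4 bases before a TTTAAA, which is in capitals together with a downstream AGCTCCAA.
Klk1b9 (chr7:43976024-43976067): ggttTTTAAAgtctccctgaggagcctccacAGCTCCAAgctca
Klk1b1 (chr7:43966714-43966757): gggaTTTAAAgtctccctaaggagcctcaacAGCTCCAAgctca
Klk1b11 (chr7:43995833-43995876): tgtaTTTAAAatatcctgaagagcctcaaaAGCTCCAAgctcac
Klk1b16 (chr7:44137247-44137290): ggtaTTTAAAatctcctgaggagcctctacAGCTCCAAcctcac
Klk1b5 (chr7:44216428-44216471): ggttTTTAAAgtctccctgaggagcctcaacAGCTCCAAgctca
Klk1 (chr7:44225314-44225357): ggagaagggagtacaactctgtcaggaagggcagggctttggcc

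The Klk1 window lies at the same distance from its annotated start as that of Klk1b5 and holds neither run of letters. In promoters running from 250 bases before to 50 bases after the annotated start, with both strands searched, TTTAAA was in 13 of 13 Klk1b promoters, in 0 of 1 for Klk1 and in 0 of 12 for the other kallikreins, against 13.2% of 27025 promoters. AGCTCCAA was in 13 of 13 Klk1b promoters, in neither Klk1 nor any of the 12 others, and in 1.49% of all promoters. The search of promoters was not part of the plan for either motif, and this second motif was chosen after the sequences were seen. The usual TATA letters TATAAA were in 0 of 13 Klk1b promoters and in 1 of the 12 others, against 14.2% of all promoters. Shared letters are a description of closely related genes, whose coding sequences were between 79.6% and 93.5% identical in pairs.

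Read totals over all rows were between 3737884 and 4636367 in the mature and between 1506134 and 2430287 in the immature libraries. In the tKO mice the targeted genes checked as follows, in CPM, counts scaled to a common library total, and corrected by edgeR's TMM factors. Rbfox2 was at 9.47 to 16 in mature mTEC of Rbfox2 tKO mice against 56.5 to 57.5 in their controls, and at 23.5 to 37.6 against 94.1 to 106 in immature mTEC. Rbfox1 was at 29.5 to 33.8 in mature mTEC of Rbfox1 tKO mice against 48.0 to 52.0, and at 151 to 153 against 160 to 163 in immature mTEC; the gene count includes exons outside a deletion. Epcam, which marks the sorted cells, was between 574 and 800 CPM in all libraries. Aire was at 634 to 1568 CPM in mature and 19.5 to 298 in immature mTEC. Markers of other cells differed with the populations. The 5 macrophage and dendritic cell markers summed to 257 to 347 CPM in mature and 14.6 to 24.4 in immature libraries, with Adgre1 and C1qa at 0 in some immature libraries. The 6 thymocyte and blood cell markers summed to 45.2 to 57.7 against 3.43 to 23.3 CPM, and the 6 fibroblast markers to 339 to 634 against 343 to 2773 CPM. Their part in the results was not tested, and in such sorted bulk samples fewer cells of a type and less RNA per cell cannot be told apart.

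Most members of the 3 families had at least 1 count in mature mTEC, and a smaller part of them in immature mTEC. After every library was thinned to 1506134 counts, 87.3 ± 1.53 (SD, n = 8 libraries) of the 101 members had at least 1 count in mature and 60.4 ± 3.82 in immature mTEC. The difference within a mouse was 26.9 ± 4.29 members, and all 8 mice had more members detected in their mature library. These are 86.4% and 59.8% of the members. The share of all Ensembl rows with a count was 41.3% and 34.5%, and that of protein-coding genes 79.0% and 67.9%. In the full libraries 85 members had a count in all 8 mature libraries and 44 in all 8 immature libraries. Serpina1d had no count in any library, and 16 members had counts in mature libraries alone, namely 12 serpins and 4 Spink genes.

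The families differed in how far detection fell in immature mTEC. Kallikreins were detected at 25.8 of 26 in mature and 18.1 of 26 in immature libraries. The fall lay mostly in the Klk1 group, Klk1 and its 13 Klk1b relatives, with 13.8 of 14 against 7.87. The 12 other kallikreins were at 11.9 against 10.2. Spink genes were at 10.3 of 12 against 4.63. Serpins were at 51.3 of 63 against 37.6, with 17.4 of 25 against 12.4 for clade A, the mostly secreted serpins of plasma, and 24.1 of 27 against 17.3 for clade B, the intracellular serpins. Counting and sampling error at this depth limits statements on the lowest members, and a count of 0 was not read as absence.

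**Figure D1:**
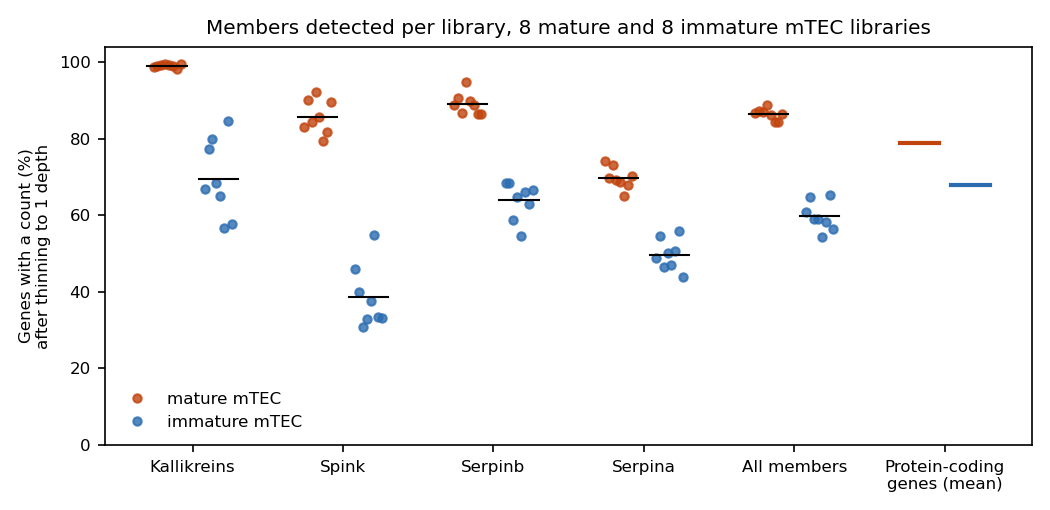
Percent of the genes of each family or clade with at least 1 count after thinning to 1506134 counts; each point is 1 library (8 mature, 8 immature mTEC), the black bars are means, and coloured bars give the means for protein-coding genes. Kallikreins are near complete in mature libraries, at a mean of 99.1% against 69.6%, and the Spink genes show the widest gap, at 85.8% against 38.6%.

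Members together held 0.361% to 0.413% of the counts of mature and 0.283% to 0.396% of immature libraries. Their summed level was 3770 ± 221 CPM (SD, n = 8) in mature and 3358 ± 529 in immature mTEC, and their ranges overlapped. Kallikreins summed to 514 ± 53.1 CPM in mature against 201 ± 48.0 in immature mTEC, a ratio of 2.57. The Klk1 group alone went from 32.5 ± 9.49 in immature to 215 ± 30.8 in mature, a ratio of 6.61. Serpins summed to 2934 ± 142 against 2854 ± 485, with clade B at 2156 against 1264 and clade A at 419 against 689. Spink genes summed to 322 ± 63.6 against 304 ± 91.3, and Spink5 alone made 82.3% and 93.6% of this sum.

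The first comparison asked which members differ between the mature and the immature mTEC of the same mice. In the 4 control mice 67 members passed the filter on low counts, and 46 of them (68.7%) were called by edgeR's quasi-likelihood test with an adjusted p under 0.05 and more than a 2-fold difference. Of all 16750 rows tested 37.8% were called. Of the members 39 were higher and 7 lower in mature mTEC, against 26.8% higher and 11.1% lower among all rows. The median log2 fold change of mature against immature was 1.61 over the members and 0.05 over all rows. The 34 members that did not pass the filter had at most 2.48 CPM on average in mature mTEC, and 31 of them had more CPM in mature than in immature mTEC, 1 had less and 2 had no count in control mice. Since a filter passes a low gene through the population where it is high, these counts describe the tested members and not the whole families. Without any filter on level, 46 of 101 members had all 8 mature libraries above all 8 immature ones and 7 had them below, that is 45.5% and 6.93%, against 22% and 11.9% of the protein-coding genes.

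Kallikreins, the proteases among the members, lie side by side on chromosome 7 between 43690418 and 44229618 (GRCm38), the Klk1 group in one stretch and the other kallikreins in the neighbouring stretch. All 26 had a count in every mature library. In control mice 16 of 23 tested kallikreins were higher in mature mTEC and none lower, with a median log2 fold change of 3.37. The groups differed in their counts. Of the Klk1 group 11 of 12 tested members were higher, with a median of 4.70, and of the other kallikreins 5 of 11, with a median of 0.91. In tKO mice it was again 11 of 12 and 5 of 11, with medians of 3.89 and 0.90.

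Klk1b9 (ENSMUSG00000059042, 7:43976061-43980376, plus strand) had the largest fitted difference of all members in control mice, though not in tKO mice. In mature mTEC its lowest, median and highest level was 26.5, 35.9 and 41.0 CPM, and in immature mTEC 0, 0.640 and 2.04 CPM. No immature library came near a mature one. The log2 fold change was 7.34 ± 0.37 (SE) in control mice, with an adjusted p of 6.76e-12, and 5.20 ± 0.32 in tKO mice. Both immature control libraries of the Rbfox2 line held no count of it, so the size of the control value depends on edgeR's small prior count, and this holds for other members at 0 in such a pair.

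Klk1b26 and Klk1b16 kept a few counts in most immature libraries. Klk1b26 had 29.6, 43.9 and 54.3 CPM (lowest, median, highest) in mature and 0, 2.19 and 6.59 in immature libraries, a log2 fold change of 4.01 ± 0.33. The immature controls of the Rbfox2 line were at 0 and 6.59 CPM, and without the second of these, replicate 2, the value was 7.24. Klk1b16 had 15.7, 26.3 and 39.2 against 1.02, 2.59 and 4.83 CPM, a log2 fold change of 3.37 ± 0.29. In both, every mature library stood above every immature one. Klk1b8 had 313 counts in the mature and 3 in the immature control libraries, a depth-corrected ratio of 48.6 with a 95% interval of 16.5 to 237 that covers counting error only. Klk1b11 stood at 92 counts against 1 (ratio 42.8, interval 7.50 to 1711) and Klk1b27 at 87 against 1 (ratio 40.5, interval 7.08 to 1619). The intervals are wide because a single immature read carries the lower value. Klk1b1, Klk1b3, Klk1b21 and Klk1b22 were called higher as well, at medians of 11, 8.06, 3.12 and 14.1 CPM in mature and at most 2.40 CPM in any immature library. Klk1b4 and Klk1b24 had medians of 1.38 and 1.44 CPM in mature libraries, and most immature libraries held no count of them.

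Klk1 itself, the kinin-releasing tissue kallikrein, behaved unlike its relatives. It had 25.6, 38.3 and 49.2 CPM in mature and 13.5, 20.7 and 32.9 in immature libraries, and the ranges overlapped. Its log2 fold change was 0.85 ± 0.16 with an adjusted p of 0.000112 in edgeR, below the fold threshold. It passed at 1.03 without immature control replicate 2 of the Rbfox2 line and at 1.02 with at least 10 counts in every library. Klk1b5, whose coding sequence is 95.1% identical to that of Klk1, had the smallest fold change of the Klk1b genes called, at 2.30 ± 0.42, and its ranges of 4.68 to 6.87 and 0 to 4.88 CPM overlapped. Of the 14 genes of the Klk1 group, 12 were at least 90% identical to another member over the coding sequence. The sources used here do not state how reads that fit several genes were counted, so the split of counts among these genes is uncertain.

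**Figure D2:**
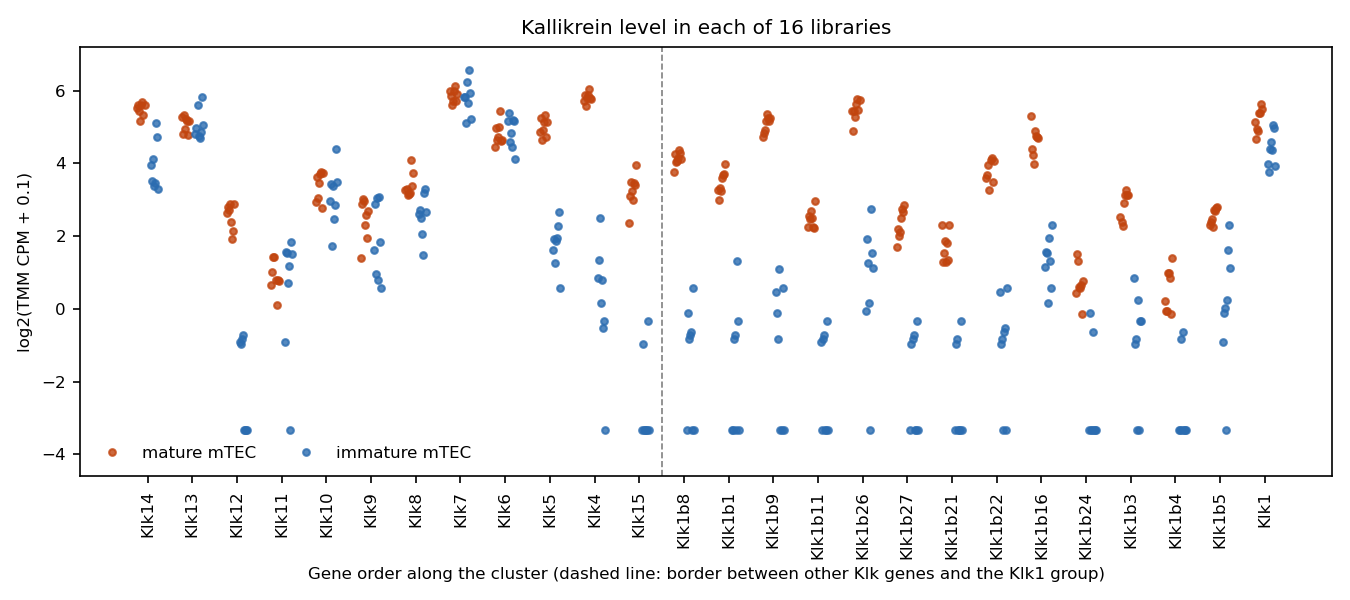
Level of each kallikrein in each of the 16 libraries, as log2 of TMM-scaled CPM plus a small offset, with the genes in their order along chromosome 7 and a dashed line at the border of the Klk1 group; the lowest row of points are libraries with no count. Most Klk1b genes keep the mature libraries above the immature ones, whereas for Klk1, Klk6, Klk7 and Klk13 the libraries overlap.

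The other kallikreins, whose coding sequences were 48.5% to 57.7% identical in pairs, split within their stretch. Klk4 (7:43881160-43885804), the enamel matrix protease, was the most abundant kallikrein of mature mTEC per length, at 44.9 ± 4.20 CPM per kb of exon. Its levels were 47.6, 55.4 and 65.6 CPM in mature and 0, 1.32 and 5.56 in immature libraries, with no overlap and a log2 fold change of 5.23 ± 0.22 (adjusted p = 1.64e-13, edgeR). Klk5, which starts the kallikrein cascade of the skin, had 25.1, 32.5 and 40.1 against 1.38, 3.62 and 6.27 CPM, a log2 fold change of 3.22 ± 0.21. Klk14, another desquamation enzyme, had 36.1, 47.0 and 51.6 against 9.67, 13.4 and 34.7 CPM, a log2 fold change of 1.49 ± 0.20. Both were higher in every mature library than in any immature one.

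Klk12 and Klk15 had few or no counts in immature libraries. Klk12 had 3.67 to 7.33 CPM in mature and at most 0.511 in immature libraries, with 98 counts against 2 in control mice, a ratio of 22.8 (interval 6.15 to 191). Klk15 (7:43933740-43939639) had 5.06 to 15.3 against at most 0.697 CPM, with 143 counts against 1, a ratio of 66.6 (interval 11.8 to 2649). On the opposite strand the gene Gm44756 shares 54.7% of the exon bases of Klk15, and it stood at 7.78 to 11.1 CPM in mature and 0 to 0.817 in immature libraries. How strand was treated in the counting is not stated by the sources, so reads of the pair cannot be told apart with certainty. Klk8 and Klk14 share 24.8% and 22.6% of their exon bases with a gene on the opposite strand as well.

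Klk7, the chymotryptic enzyme that cleaves corneodesmosomes, was the most abundant kallikrein of immature mTEC per length, at 30.7 ± 10.3 CPM per kb. Its levels of 48.9, 58.7 and 69.2 CPM in mature and 34.3, 56.7 and 94.1 in immature libraries overlapped throughout, with a log2 fold change of 0.00 ± 0.13. Klk6 likewise had 21.7, 25.6 and 43.6 against 17.3, 32.1 and 41.6 CPM, with -0.07 ± 0.17, and Klk13 27.3, 35.7 and 40.5 against 26.0, 30.1 and 56.5 CPM, with 0.30 ± 0.14. Klk9, Klk10 and Klk8 were at log2 fold changes of 0.03, 0.60 and 0.91 and were not called. Klk8 passed at 1.11 without mature control replicate 1 and at 1.44 without immature control replicate 2, both of the Rbfox2 line. Klk5 and Klk7, both parts of the skin cascade, thus stood at different places, the former called higher and the latter not called.

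Of the other genes of that epidermal cascade, 12 of 13 listed were tested. Dsg1b, a desmosomal cadherin, was higher in mature mTEC at a log2 fold change of 2.22, Flg, the precursor of filaggrin, was lower at -1.02, and the other 10 were not called. The median over the list was -0.31. The 9 cornifying epithelial markers gave 0 higher and 1 lower of 8 tested, with a median of -0.33.

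Spink genes, the Kazal-type inhibitors, gave 4 higher and 0 lower of 6 tested in control mice, with a median log2 fold change of 1.94. Spink5, the inhibitor of epidermal kallikreins, was the most abundant of them per length in both populations, at 55.3 ± 12 CPM per kb in mature and 59.4 ± 17.9 in immature mTEC. Its levels were 160, 274 and 342 CPM in mature and 157, 300 and 387 in immature libraries. The groups overlapped throughout, and the log2 fold change of 0.04 ± 0.16 was not called (adjusted p = 0.831, edgeR). Spink12 was not called either, at 0.59.

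The pancreatic trypsin inhibitor Spink1 had 16.9, 26.9 and 35.3 CPM in mature and 4.17, 8.32 and 25 in immature libraries. These ranges overlapped, and it was called at a log2 fold change of 1.51 ± 0.21. Spink4, which is made by intestinal goblet cells, had 5.33 to 9.37 against 0 to 2.40 CPM, a log2 fold change of 2.37 ± 0.46. Without immature control replicate 2 of the Rbfox2 line, the library at 2.40 CPM, this was 4.89. Spink2, an inhibitor of the testis, had 2.32, 3.07 and 4.76 CPM in mature libraries and no count in any immature library. With 3 counts as the floor over the control group it was at least 8.38-fold higher in mature mTEC. Spink7, found in the oesophagus, had 62 counts against 1, a ratio of 28.9 (interval 4.99 to 1159). Spink13 and Spink14 had counts in mature libraries alone, at medians of 1.91 and 1.04 CPM, and did not pass the filter. The log2 ratio of the summed family level, mature against immature within a mouse and averaged over the mice, was 0.12 with Spink5 and 1.64 without it.

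**Figure D3:**
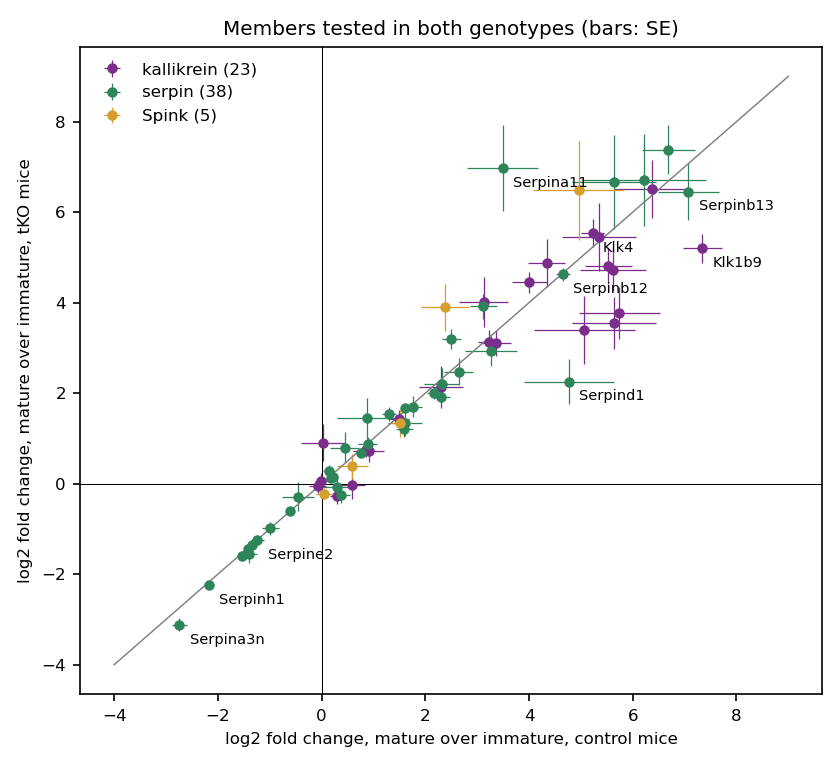
Log2 fold change of mature over immature mTEC in control mice (horizontal axis) and in tKO mice (vertical axis) for the 66 members tested in both, coloured by family, with bars for the standard error and the line of equal values. The 45 members called in both comparisons lie in the upper right or lower left part of the plot.

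Serpins moved in both directions: 19 of 38 tested were higher and 7 lower in mature mTEC of control mice, with a median log2 fold change of 1.09. All 7 members called lower belonged to this family. By clade, 10 of 18 tested clade B serpins were higher and none lower, and 6 of 12 tested clade A serpins were higher and 3 lower. The clade B genes lie in a cluster on chromosome 1 (106861173-107610484), where 7 of 10 tested were higher, and in one on chromosome 13 (32842092-34002794), where 3 of 8 were.

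Serpinb12 (1:106934449-106957080, plus strand), an inhibitor of trypsin-like proteases, had the lowest adjusted p of the members. It had 161, 190 and 228 CPM in mature and 3.80, 7.79 and 14.3 in immature libraries. The lowest mature library stood far above the highest immature one. The log2 fold change was 4.65 ± 0.14 with an adjusted p of 1.45e-15 in edgeR, and 4.63 ± 0.14 in tKO mice. Its neighbour Serpinb13 (1:106980984-107001195), an inhibitor of lysosomal cathepsins in squamous epithelia, had 11.6, 12.9 and 14.7 against 0, 0 and 1.02 CPM. In control mice it had 232 counts against 1, a ratio of 108 with an interval of 19.2 to 4286.

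Serpinb9, the inhibitor of granzyme B, had 310, 338 and 420 CPM in mature and 93.9, 114 and 130 in immature libraries, a log2 fold change of 1.61 ± 0.08. Serpinb2, plasminogen activator inhibitor 2, had 168, 232 and 275 against 33.1, 57.3 and 66.5 CPM, a log2 fold change of 2.31 ± 0.16. Both separated the populations fully. Serpinb2 shares 12.4% of its exon bases with Serpinb10 on the same strand, and Serpinb10 had 62.2 to 77.0 against 11.4 to 23.5 CPM. Serpinb9b had 294 counts against 3 in control mice, a ratio of 45.6 (interval 15.5 to 223), and Serpinb6e had 55 against 0, at least 8.54-fold higher.

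Serpinb3a, Serpinb3c and Serpinb7 were called higher too, at log2 fold changes of 2.64, 3.27 and 1.6. The value of Serpinb3c ran from 2.74 to 6.93 over the alternatives, and its immature control libraries of the Rbfox2 line were at 0 and 12 CPM. Serpinb3a, with Serpinb3c, is over 90% identical to another member and its counts are uncertain in the way described for the Klk1b genes. Serpinb1a, the inhibitor of neutrophil elastase, was the most abundant member per length in both populations, at 279 ± 27.0 CPM per kb in mature and 248 ± 29.7 in immature mTEC, and made 29.8% and 45.3% of the clade B sum. Its levels of 555 to 735 and 479 to 667 CPM overlapped, and its log2 fold change of 0.22 ± 0.07 was below the fold threshold. Serpinb6a was at 0.19 and Serpinb8 at 0.89, neither called. Serpinb8 passed at 1.11 and 1.01 without immature control replicate 2 of the Rbfox1 and of the Rbfox2 line. With at least 10 counts in every library it passed at 1.05.

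Serpinb5, known as maspin, had 9.17, 16.1 and 21.4 CPM in mature and 21.6, 33.2 and 42.1 in immature libraries. The mature libraries all lay below the immature ones, but its log2 fold change of -0.99 ± 0.17 missed the fold threshold. It passed at -1.03 to -1.18 when any of 4 control libraries was left out: mature replicate 2 of either line, or immature replicate 3 of the Rbfox1 line or 2 of the Rbfox2 line.

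In clade A, which lies on chromosome 12 (103614786-104414329) but for 1 gene, the Serpina3 genes went both ways. Serpina3n (12:104406729-104414329), the mouse relative of antichymotrypsin, had 8.44, 11.4 and 19.1 CPM in mature and 59.5, 84.2 and 154 in immature libraries. All immature libraries stood above all mature ones, and the log2 fold change was -2.74 ± 0.14 (adjusted p = 2.28e-12, edgeR). Serpina3i and Serpina3h were lower too, at -1.41 and -1.34, with 48.4 to 61.2 against 106 to 179 CPM and 26.8 to 39.7 against 58.0 to 95.9 CPM. Serpina3h is annotated as a transcribed pseudogene. It had no coding sequence to compare, so its identity with the other Serpina3 genes was not measured and its counts are uncertain. Serpina3g, an intracellular inhibitor of cathepsins in lymphocytes, had 202, 217 and 240 against 284, 337 and 380 CPM, with -0.61 ± 0.07, below the fold threshold.

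Serpina3b, Serpina3f and Serpina3j were higher in mature mTEC. Serpina3f had 7.26 to 14.2 against 0.697 to 4.88 CPM and Serpina3j 8.01 to 15.1 against 1.20 to 7.67 CPM, at log2 fold changes of 2.31 and 1.61 that became 2.99 and 2.55 without immature control replicate 1 of the Rbfox2 line, and Serpina3b had 85 counts against 1 (ratio 39.6, interval 6.92 to 1582). Serpina12, the adipose serpin vaspin, had 19.4, 21.7 and 26.0 against 0.697, 1.74 and 4.90 CPM, with 3.12 ± 0.26. Serpina9, a serpin of germinal centre B cells, had 23.4 to 39.5 against 4.59 to 15.7 CPM, with 1.76 ± 0.18. Serpina11 had 76 counts against 3, a ratio of 11.8 (interval 3.89 to 58.5). These genes again kept the populations apart.

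The classic liver serpins of clade A were low. Of the Serpina1 genes, which encode alpha-1 antitrypsin, Serpina1b had 1.22 to 8.12 CPM in mature and 0 to 6.21 in immature libraries, Serpina1e at most 3.52, and Serpina1a and Serpina1c under 1 CPM everywhere. These genes are over 90% identical in coding sequence. Serpina6, which carries glucocorticoids, and Serpina7, which carries thyroid hormone, reached at most 2.09 and 0.468 CPM. Serpina10, the protein Z-dependent protease inhibitor, was not called at 0.29, nor was Serpini1, the neuronal serpin neuroserpin, at 0.14.

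Of the serpins of clotting and fibrinolysis outside clade A, Serpinc1 and Serpind1 were higher in mature mTEC. Serpinc1, antithrombin, had 26.8, 37.6 and 47.8 CPM in mature and 1.39, 4.79 and 13.1 in immature libraries, a log2 fold change of 2.50 ± 0.19. Serpind1, heparin cofactor II, had 2.53 to 6.75 against 0 to 2.07 CPM, with 4.77 ± 0.87, which was 7.08 without immature control replicate 2 of the Rbfox1 line. Serpinf2, the plasmin inhibitor, reached 1.64 CPM and was not tested. Serpinc1 shares 34.4% of its exon bases with Zbtb37 on the opposite strand, which was at 16.3 to 26.9 CPM in mature and 23.0 to 39.8 in immature libraries.

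Proteases of the kinds that these inhibitors act on were followed with lists. Of 13 coagulation and fibrinolysis proteases and partners 8 were tested; F2, F7 and F10 were higher in mature mTEC at log2 fold changes of 3.25, 2.82 and 3.65, and Thbd, thrombomodulin, was lower at -4.06. All 7 tested pancreatic proteases of 12 listed and all 5 tested leukocyte proteases of 9 were higher. Their medians were 4.91 and 7.24, and of all rows 26.8% were higher and 11.1% lower. Since the filter passes a low gene through the population where it is high, these counts describe the tested genes alone. Gzmb had no count in the immature control libraries, and its mean in mature controls was 20.1 CPM in the Rbfox1 line and 20.3 in the Rbfox2 line. The size of its log2 fold change, 9.05, depends on edgeR's prior count. Of the cysteine cathepsins Ctsh, Ctss and Ctsz were higher at 2.72, 1.86 and 1.65, out of 5 tested. Of 13 tested inhibitors of other families A2m, Slpi, Ambp and Tfpi were higher at 5.57, 4.28, 1.69 and 1.19, and Timp2 was lower at -1.40.

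The other 4 serpins called lower in mature mTEC were Serpinh1, Serping1, Serpinf1 and Serpine2. Serpinh1 (7:99345376-99353239), the collagen chaperone Hsp47, which inhibits no protease, had 78.9, 105 and 139 CPM in mature and 368, 476 and 670 in immature libraries. No libraries overlapped, and the log2 fold change was -2.17 ± 0.10 (adjusted p = 4.51e-13, edgeR). Serping1, the C1 inhibitor of complement, had 29.4, 34.5 and 45.6 against 46.5, 123 and 204 CPM, with -1.53 ± 0.10. Serpinf1, the angiogenesis inhibitor PEDF, had 6.32, 10.3 and 15.1 against 10.2, 36.5 and 60.1 CPM, with -1.41 ± 0.17, and Serpine2, protease nexin 1, had 45.4, 62.7 and 90.9 against 66.0, 157 and 337 CPM, with -1.24 ± 0.13. The ranges of Serpinf1 and Serpine2 overlapped between the populations, and those of Serping1 did not.

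Fibroblast markers went the same way. In control mice 5 of the 6 listed (Col1a1, Col1a2, Col3a1, Pdgfra, Dcn and Lum) were lower in mature mTEC, with a median log2 fold change of -1.61, as were 3 of 4 endothelial markers. Their part in the values of the 4 serpins was not tested. Of 5 macrophage and dendritic cell markers 4 were tested, and all 4 were higher in mature mTEC. Of 6 thymocyte and blood cell markers 3 were tested, and all 3 were higher. The share of all rows was 26.8% higher and 11.1% lower. A marker that is low in immature libraries passes the filter through the mature ones, so these counts describe the tested markers alone. These markers went the same way as the members called higher, and their part was not tested either.

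The same contrast in the 4 tKO mice, which share no library with the controls, gave 47 of 67 tested members called (70.1%), 39 higher and 8 lower, against 38.1% of 16578 rows (26.3% higher and 11.9% lower). The median of the members was 1.55. All 45 members called in controls and tested in tKO mice were called there in the same direction. Spink2 was called in controls and did not pass the filter in tKO mice, where it was at least 7.98-fold higher. Serpina1b, at 1.45, and Serpinb9e, at -1.41, were called in tKO mice alone, and both are near identical to other members. The difference of the maturity effect between tKO and control mice was called in 0 of 69 members by edgeR and in 0 by DESeq2, against 0% of all rows; 2 members had an unadjusted p under 0.05, against 5.2% of all rows.

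Between the genotypes the question was whether loss of Rbfox1 or Rbfox2, both regulators of alternative splicing, moved the level of any member. No member was called in any of 6 comparisons by edgeR, and DESeq2 called 0 as well. In mature mTEC 76 members were tested. For Rbfox1 tKO against control, 5 of them had an unadjusted p under 0.05, against 3.35% of all rows, and 0.0166% of all rows were called. For Rbfox2 tKO it was 7 members against 5.34%, with 0.0277% of rows called, and for both lines together 8 (10.5% of the members tested) against 4.49%, with 0.0166% called. Of these 8 members 6 were kallikreins, namely Klk5, Klk6, Klk7, Klk14, Klk15 and Klk1b16, with log2 fold changes between -0.44 and 0.52, and the others were Serpina1b and Serping1. In immature mTEC 38 members were tested. There 3 had an unadjusted p under 0.05 in Rbfox1 tKO mice, against 5.9% of rows with 0.0306% called, 3 in Rbfox2 tKO mice, against 6.25% with 0.0536% called, and 3 over both lines, against 7.47% with 0.0306% called.

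The fold changes of the members with genotype were not called, though some passed 2-fold. The log2 values of tKO against control lay between -0.80 and 1.32 for Rbfox1 and between -1.43 and 1.08 for Rbfox2 in mature mTEC, and between -0.60 and 0.81 and between -0.97 and 1.36 in immature mTEC. With 2 mice a group, such a spread does not show that the genotypes were alike.

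**Figure D4:**
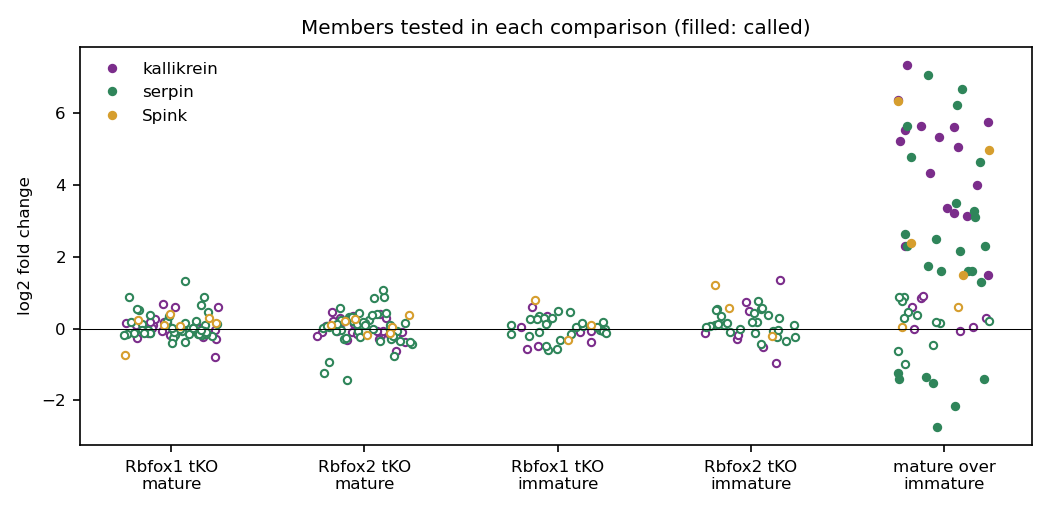
Log2 fold change of every tested member in the 4 comparisons of tKO with control mice within a line and, at the right, of mature over immature mTEC in control mice; each point is 1 member, coloured by family, and filled points are called. No member is called with genotype, where values run from -1.43 to 1.36, and 46 are called between the populations.

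A pair of members changed with the setting. Klk1b16 had 39.2 and 20.9 CPM in mature mTEC of Rbfox1 control mice and 18.8 and 15.7 in Rbfox1 tKO mice. One control stood above all others and the second was close to the knockouts. Its log2 fold change was -0.80 ± 0.23 with an adjusted p of 1.0 in edgeR, and without Rbfox1 control replicate 3 it was -1.18 with an adjusted p of 0.00694; that fit holds a single Rbfox1 control, assumed to vary like the other groups. Serpina1b had 1.22 to 5.82 CPM in the 4 mature control libraries and 5.15 to 8.12 in the 4 mature tKO libraries, which overlapped. Over both lines its log2 fold change was 1.19 with an adjusted p of 0.62, and without the filter on low counts it was 1.18 with an adjusted p of 0.0159.

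The lines themselves differed more than the genotypes. With genotype as covariate, Rbfox1-line against Rbfox2-line mice gave 0 of 76 members called in mature mTEC by edgeR and 0 by DESeq2, against 1.05% of all rows. At an adjusted p under 0.05 alone 15 of the 76 members passed, 2 higher and 13 lower in the Rbfox1 line, against 13.5% of rows. An unadjusted p under 0.05 was found for 25 of the 76, against 28% of rows. In immature mTEC 4 of 38 members were called, 10.5% against 5% of rows. At an adjusted p alone 11 of the 38 passed, against 23.5% of rows. The mice of the lines differed in the floxed gene, and whatever else went with the line cannot be told apart from it.

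Of the 4 members called in immature mTEC, 3 are among the serpins lower in mature mTEC. Serpinf1 had 11.1, 15.9, 20.4 and 10.2 CPM in the 4 immature libraries of the Rbfox1 line and 58.0, 52.7, 56.5 and 60.1 in those of the Rbfox2 line, a log2 fold change of -1.96 ± 0.17 (adjusted p = 2.46e-07, edgeR). Serping1 had 57.4, 46.5, 84.8 and 58.7 against 162, 183, 204 and 181 CPM, with -1.57 ± 0.11 (adjusted p = 2.78e-08, edgeR). Serpine2 had 66.0, 95.9, 82.9 and 84.7 against 337, 218, 320 and 224 CPM, with -1.74 ± 0.14 (adjusted p = 8.67e-08, edgeR). In each the highest Rbfox1-line library lay below the lowest Rbfox2-line library. Serpinc1 went the other way, with 11.1, 13.1, 9.73 and 6.13 against 3.25, 3.0, 1.39 and 3.45 CPM and a log2 fold change of 1.84 ± 0.35 (adjusted p = 0.00085, edgeR).

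**Figure D5:**
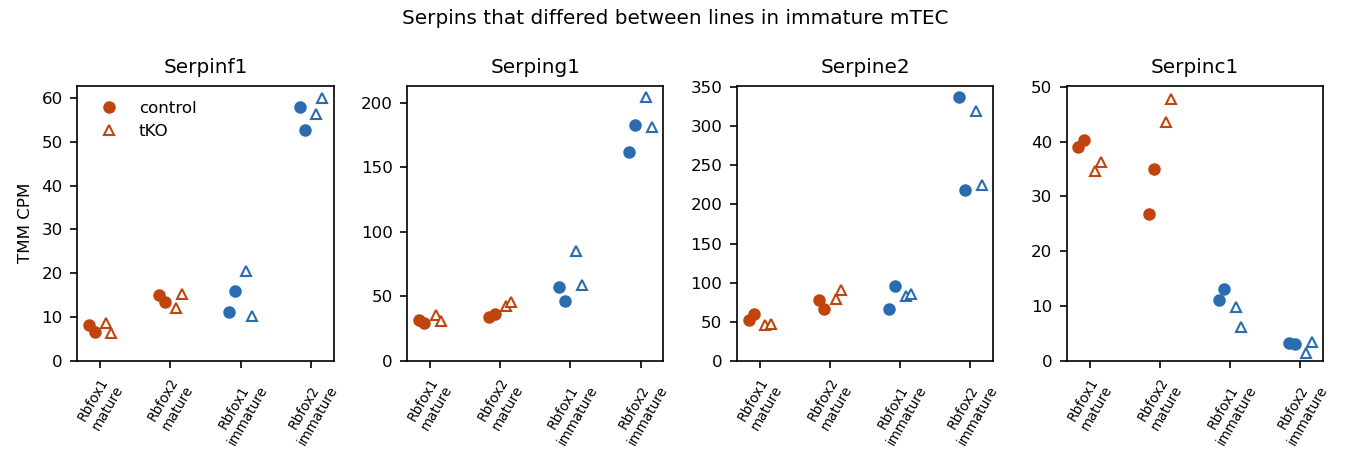
Level in TMM-scaled CPM, on a linear axis from 0, of Serpinf1, Serping1, Serpine2 and Serpinc1 in each library, by line and population; filled circles are control and open triangles tKO mice. In immature mTEC the 4 libraries of the Rbfox1 line and the 4 of the Rbfox2 line do not overlap for any of the 4 genes.

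Markers of other cells moved with the line. The 6 fibroblast markers summed to 343 to 707 CPM in immature libraries of the Rbfox1 line and to 1853 to 2773 in those of the Rbfox2 line, and all 6 were called lower in the Rbfox1 line, with a median log2 fold change of -2.17. Of 4 endothelial markers 3 were called lower, with sums of 26.6 to 67.4 against 68.9 to 212 CPM. Aire was at 211 to 298 CPM in immature libraries of the Rbfox1 line and at 19.5 to 53.9 in those of the Rbfox2 line, and Cd80, a marker of mature mTEC, at 28.7 to 34.7 against 4.19 to 13. Zbtb37, which overlaps Serpinc1, was at 27.4 to 39.8 against 23.0 to 32.5 CPM. The part of these markers in the differences between the lines was not tested.

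Since line and population both bore on these genes, the maturity contrast was also run within each line of the control mice, a step added after seeing the data. It called 45 of 67 members in the Rbfox1 line (41 higher, 4 lower), against 35% of rows, and 48 in the Rbfox2 line (40 higher, 8 lower), against 38%. The log2 fold changes of mature against immature in the Rbfox1 and the Rbfox2 line were -0.86 and -1.96 for Serpinf1, -0.76 and -2.30 for Serping1, -0.53 and -1.95 for Serpine2, and 1.72 and 3.29 for Serpinc1. The difference of the maturity effect between the lines, tested in all 16 libraries, passed at an adjusted p under 0.05 in these 4 of 69 members (5.8%), against 4.76% of all rows. For Serpinf1 the call was lost when any of 3 libraries of the Rbfox1 line was left out, mature control replicate 2, mature tKO replicate 2 or immature tKO replicate 3, at differences of 0.85 to 1.0. With the mouse as a block 7 members passed, the further ones being Klk4, Serpinb1a and Serpinb6b.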

How the data were processed

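Mature and immature mTEC of 8 mice were sequenced as 16 stranded libraries. Per the labels and file headers, the authors used HISAT2 (2.1.0), Picard (2.10.9), featureCounts (1.6.0) and the build mm10, took out duplicates and reads without an alignment, and reduced each population to a fixed read number. The deposited values are whole-number counts per gene with no normalization. Totals therefore do not show sequencing depth, and this reduction lowers the precision of low genes. The strand and multi-mapping settings of the counting are not given in the sources used here.

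Symbols, coordinates and exon lengths came from GENCODE M21 (GRCm38), promoters from RefSeq (GRCm38.p6). Counts were fitted across all rows, assembled loci included, with edgeR (4.0.16, R 4.3.3): TMM factors, filterByExpr with a minimum count of 10, quasi-likelihood test and Benjamini-Hochberg adjustment. A gene was called at an adjusted p under 0.05 and a log2 fold change beyond 1 in either direction; differences of effects needed the adjusted p alone. Maturity was compared over line by population means of 8 libraries, genotype over the 8 libraries of a population, and the lines with genotype as covariate. The mouse is the replicate; each group has 2. Detection and summed levels have no test. Intervals of count ratios are exact and cover counting error only. The fits were tested on simulated data.

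Coding sequences were compared as nucleotides, in place of the proteins the plan named, since no protein table was used here. Members at least 90% identical to another are given as uncertain. Named members were the 6 largest called fold changes per family and direction in control mice, the 5 highest levels per length in each population, every member called between genotypes or lines, and members with a known role. Others that are named were picked after their values were seen. Members of a known role that stayed low are given by counts and ranges, and 1 member that the rule names is not reported here. The members, the 12 gene lists and the tests were chosen with earlier results of these data known. The alternatives were DESeq2 (1.42.0), its size factors in edgeR, other filters, no fold threshold, each library left out, sex or control mice alone for the lines, and replicate blocks. The contrast within each line and the line by population difference were added after seeing the data. Mature and immature libraries of a number come from 1 mouse, and their deviations from the group means correlated at 0.0889 to 0.179. Between tKO and control mice of a number the correlation was 0.0029 to 0.143.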

Additional observations from a re-analysis of the deposited data

Results flagged for a closer look

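The difference of the maturity effect between the lines, the Rbfox1 line minus the Rbfox2 line on the log2 scale, passed the test of the difference itself in 4 of 69 members, in a comparison that was added after seeing the data. This is 5.8% of the members against 4.76% of all rows, a share near the background. It was 1.08 ± 0.27 (SE) for Serpinf1 (adjusted p = 0.0148, edgeR's quasi-likelihood test), 1.28 ± 0.15 for Serping1 (adjusted p = 9.29e-06, edgeR) and 1.12 ± 0.19 for Serpine2 (adjusted p = 0.000376, edgeR), so that these serpins fell less from immature to mature mTEC in the Rbfox1 line. For Serpinc1 it was -1.82 ± 0.34 (adjusted p = 0.00144, edgeR), a smaller rise in the Rbfox1 line. For all 4 genes the immature libraries of the lines did not overlap. The fibroblast markers and Aire moved with the line in immature mTEC, and their part was not tested.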

How the results depend on the processing

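All 46 members called between mature and immature mTEC of control mice stayed called, in the same direction, in every alternative that gave them a value. Requiring at least 10 counts in every library tested fewer members and called 17 in control mice, 14 in tKO mice, 15 in Rbfox1-line and 16 in Rbfox2-line controls. Leaving out each library gave 44 to 53 members in control and 48 to 54 in tKO mice, 4 to 5 for the lines in immature mTEC, 3 to 5 for the line by population difference, and 0 to 1 for Rbfox1 tKO against control in mature mTEC. Without the fold threshold the lines differed in 15 members in mature and 11 in immature mTEC. Without the filter on low counts 1 member was called with genotype over both lines in mature mTEC. A replicate block changed 1 count by over 1.5 times: with the mouse as a block the line by population difference passed in 7 members in place of 4. The log2 ratio of summed Spink levels, mature against immature within a mouse and averaged over the mice, was 0.12 and became 1.64 without Spink5. Only members that were not called changed sign. Klk6 (-0.07) became 0.089 with 10 counts in every library and ran from -0.25 to 0.13 on leaving out a library. Klk7 (0.00) became 0.051 with DESeq2's size factors, 0.056 with DESeq2, 0.059 without the filter, 0.16 with 10 counts in every library, 0.0045 with the replicate block and ran from -0.20 to 0.25 on leaving out a library, while Serpina10 (0.29) ran from -0.024 to 0.79 and Spink5 (0.04) from -0.20 to 0.36. The causes were not tested. Immature libraries hold fewer counts than mature ones, which limits statements on members under a few CPM there.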
